A study of Homo sapiens with 12 samples.

Results

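Oxidative phosphorylation uses enzyme complexes of the inner mitochondrial membrane, and most of their subunits are encoded in the nucleus. The 85 genes described here are those of the expression table whose symbols follow the names of subunits of complexes I to V, namely the NDUFA, NDUFB, NDUFC, NDUFS and NDUFV series, SDHA to SDHD, the UQCR genes, CYC1, the COX4 to COX8 genes and the ATP5F1, ATP5M and ATP5P genes. They were taken by symbol from 21574 features, by a rule that uses no measured value, although the gene family was picked with earlier results of these data known. NDUFA4 carries a complex I name, but its product is known as a subunit of complex IV and it is counted there. This gave 36 genes for complex I, 4 for complex II, 10 for complex III, 17 for complex IV and 18 for complex V.

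All 12 libraries were made from total RNA of MDA-231-LM2, a lung-metastatic derivative of MDA-MB-231, an established line of human breast cancer cells. The 4 groups, with 3 libraries each, were cells labelled TMEM216 with IGF1 added (TMEM216+IGF1), cells labelled TMEM216 without it (TMEM216), cells labelled Ctrl with IGF1 (Ctrl+IGF1), and cells labelled Ctrl without it (Ctrl). TMEM216 encodes a protein of the transition zone of the primary cilium, and IGF1 is a growth factor that signals through the IGF1 receptor. The labels do not give the manipulation of TMEM216 or the dose and duration of IGF1, nor do they say whether the cells were 1 clone or the replicates separate cultures, so a p-value here reflects spread among libraries that may be technical.

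Complexes I and II feed electrons from NADH and from succinate into ubiquinone, complex III passes them to cytochrome c, and complex IV passes them to oxygen. Complexes I, III and IV pump protons, and complex V uses the proton gradient to make ATP. Complexes I, III, IV and V combine nuclear subunits with a few encoded by mitochondrial DNA, whereas all subunits of complex II are nuclear. Many nuclear subunits are small proteins with short transcripts. Breast cancer cells use this pathway beside glycolysis.

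The TMEM216 transcript itself averaged 219 ± 29.2 TPM, a length-scaled relative abundance, in the TMEM216-labelled libraries and 26.8 ± 2.68 TPM in the Ctrl-labelled libraries (SD, n = 6 each; exact two-sided permutation test, p = 0.00216, the smallest that 924 splits allow). The line's markers were as known for MDA-MB-231, with 5755 to 7272 TPM for VIM and 317 to 526 TPM for CD44, and with at most 0.204 TPM for ESR1, 0.00934 TPM for PGR and 0.0996 TPM for CDH1. ERBB2 had 31.7 to 42.9 TPM. In a principal component analysis of all tested features, Ctrl+IGF1 replicate 3 and TMEM216 replicate 1 stood apart on the first component, which held 22% of the variance, with scores of -31 and -19.4, against -8.4 to 18.2 for the other libraries. The members' medians that rest on Ctrl+IGF1 replicate 3 or TMEM216 replicate 1 are also given without 1 or both of them. Counts at an unadjusted p and counts without overlap are given for all libraries only. The table lists 0 of the 13 subunits encoded by mitochondrial DNA, so those were not analysed here.

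Of the 85 genes, 78 reached 1 TPM in at least 3 libraries and were tested, and they were among the more abundant transcripts of these cells. Their median level was 179 TPM, against 23.5 TPM over all 13071 tested features. They were also short. The longest annotated transcript had a median length of 1510 bases over the members and 3637 bases over all features, and 24 members had no transcript as long as 1000 bases. Levels spread little over the 12 libraries: the highest library was a median of 1.45 times the lowest for the members and 1.55 times for all features. The median SD between replicates on the log2 scale was 0.155 for the members and 0.157 for all features.

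**Figure D1:**
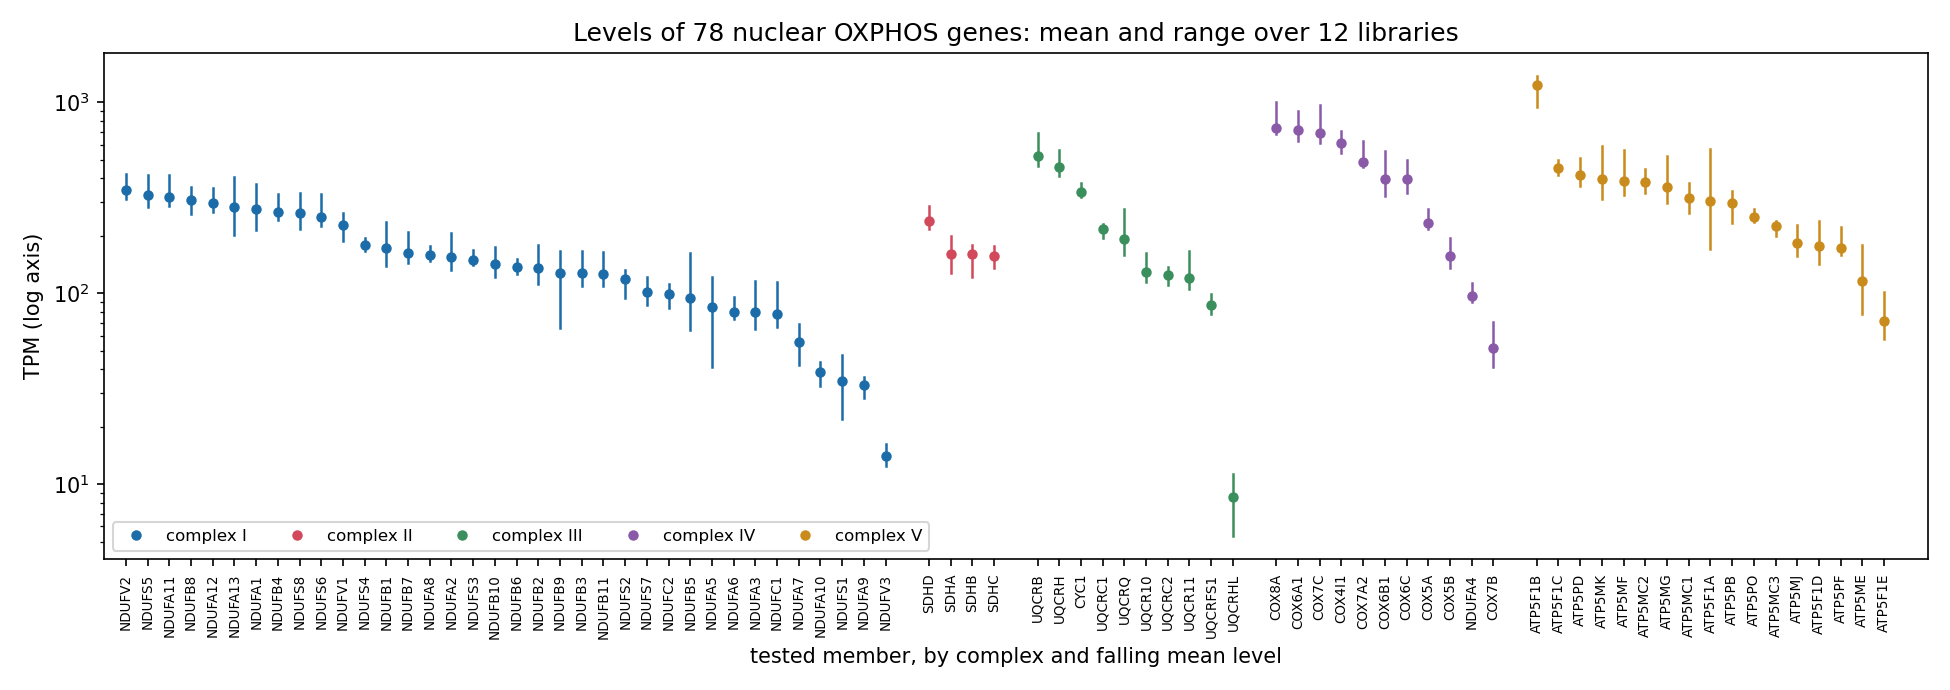
Mean TPM (points) and range over 12 libraries (lines) of the 78 tested members, on a log axis, grouped by complex and ordered by mean. ATP5F1B stands above all other members at 1228 TPM, and UQCRHL is lowest at 8.58 TPM.

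In complex I all 36 genes were expressed, with a median of 140 TPM. The 7 nuclear core subunits carry the flavin and the iron-sulfur clusters. They had 34.9 TPM for NDUFS1 to 347 TPM for NDUFV2, a subunit of the NADH-oxidising module. The 29 accessory subunits, which surround the core, had a median of 137 TPM. The lowest of them and of the complex was NDUFV3, at 14.0 TPM. NDUFS4 was among the most even members, with 167 to 196 TPM, whereas NDUFB5 had 64.0 to 162 TPM.

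NDUFA5, an accessory subunit of the matrix arm of complex I, had 99.1, 92.8 and 54.2 TPM in TMEM216+IGF1 cells, 121, 67.8 and 41.1 TPM in TMEM216 cells, 76.0, 92.8 and 97.4 TPM in Ctrl+IGF1 cells, and 97.3, 93.7 and 82.9 TPM in Ctrl cells. The widest spread was within the TMEM216 group, and all groups overlapped.

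Complex II had 4 expressed genes at similar levels per length. SDHD, which with SDHC anchors the complex in the membrane, averaged 240 TPM. The flavoprotein SDHA averaged 161 TPM, the iron-sulfur subunit SDHB 160 TPM and SDHC 157 TPM. In complex III, with a median of 160 TPM, UQCRB was highest at 524 TPM. Of the catalytic subunits, CYC1, cytochrome c1, averaged 341 TPM and UQCRFS1, the Rieske iron-sulfur protein, 86.9 TPM. The core proteins UQCRC1 and UQCRC2 averaged 218 and 125 TPM. UQCRH, the hinge protein, averaged 458 TPM and its near-identical copy UQCRHL 8.58 TPM. Reads of UQCRH and UQCRHL could be divided between them by the authors' counting, so the level of UQCRHL is uncertain.

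Complex IV showed which of its paired subunit genes these cells use. COX4I1 averaged 615 TPM and COX6A1 719 TPM, while COX4I2, a gene known from lung, and COX6A2, known from heart and skeletal muscle, were listed at 0 in all 12 libraries. COX7B averaged 51.8 TPM and COX7B2 was listed at 0 in all 12. COX8A averaged 736 TPM and COX8C was listed at 0 in 11 libraries and at 0.252 TPM in the other. COX7A2 averaged 490 TPM, while COX7A1, known from heart and skeletal muscle, was listed at 0 in 7 libraries and reached at most 0.881 TPM. COX6B1 averaged 399 TPM, and COX6B2, known from testis, reached at most 0.46 TPM. These 6 low genes, and ATP5MGL of complex V with at most 0.305 TPM, are the 7 members that were not tested.

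Complex V contained the highest member, ATP5F1B, the catalytic beta subunit, with 1280, 1315 and 1179 TPM in TMEM216+IGF1 cells, 947, 1318 and 1359 TPM in TMEM216 cells, 1145, 1376 and 1102 TPM in Ctrl+IGF1 cells, and 1187, 1243 and 1287 TPM in Ctrl cells. TMEM216 replicate 1 was the lowest library, and all groups overlapped. The lowest tested member of complex V was ATP5F1E, the epsilon subunit, at 71.4 TPM. The 3 genes ATP5MC1, ATP5MC2 and ATP5MC3 encode the same mature c-ring subunit. Of their summed TPM in a library, ATP5MC2 made up 39.0 to 43.9%, ATP5MC1 31.1 to 37.1% and ATP5MC3 19.5 to 26.1%.

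ATP5F1A, the alpha subunit of complex V, was the most variable tested member. It had 221, 238 and 571 TPM in TMEM216+IGF1 cells, 170, 221 and 286 TPM in TMEM216 cells, 499, 308 and 245 TPM in Ctrl+IGF1 cells, and 214, 492 and 211 TPM in Ctrl cells. A single library was far above the others of its group in TMEM216+IGF1, Ctrl+IGF1 and Ctrl, and all groups overlapped. Its partner in the F1 sector, ATP5F1B, had no matching excess in these libraries. ATP5F1A overlaps HAUS1 on the opposite strand, which had 103 to 135 TPM. Strandedness of the libraries is not stated, and the part of the overlap in this spread was not tested.

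The members summed to 1.87 ± 0.0355% of all TPM in TMEM216+IGF1 cells, 1.90 ± 0.112% in TMEM216 cells, 2.03 ± 0.231% in Ctrl+IGF1 cells and 1.83 ± 0.0388% in Ctrl cells (SD, n = 3 each). The share was 1.89, 1.83 and 1.89% in the TMEM216+IGF1 libraries, 2.03, 1.88 and 1.81% in the TMEM216 libraries, 2.01, 1.81 and 2.27% in the Ctrl+IGF1 libraries, and 1.87, 1.83 and 1.79% in the Ctrl libraries. The groups overlapped, and the highest library of all was Ctrl+IGF1 replicate 3. In bulk RNA, fewer cells with a transcript and less of it per cell cannot be told apart.

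Complexes I, III, IV and V deviated together in Ctrl+IGF1 replicate 3 and TMEM216 replicate 1. Complex II and the median of all features deviated the other way. In Ctrl+IGF1 replicate 3 the median deviation of log2(TPM + 1) from the 12-library mean was 0.28 for complex I, 0.26 for III, 0.34 for IV and 0.30 for V, but -0.094 for complex II. In TMEM216 replicate 1 it was 0.14 for complex I, 0.053 for III, 0.10 for IV and 0.14 for V, but -0.27 for complex II. The median over all features was -0.16 in Ctrl+IGF1 replicate 3, below complex II, and -0.049 in TMEM216 replicate 1, above it. Summed over its 4 genes, complex II had its lowest levels in these 2 libraries, 672 TPM in TMEM216 replicate 1 and 663 TPM in Ctrl+IGF1 replicate 3, whereas complexes I, III, IV and V each had their highest sum in Ctrl+IGF1 replicate 3. Within complex II, SDHA and SDHB were low in TMEM216 replicate 1, at 127 and 122 TPM, while SDHD had its highest level there, 287 TPM.

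**Figure D2:**
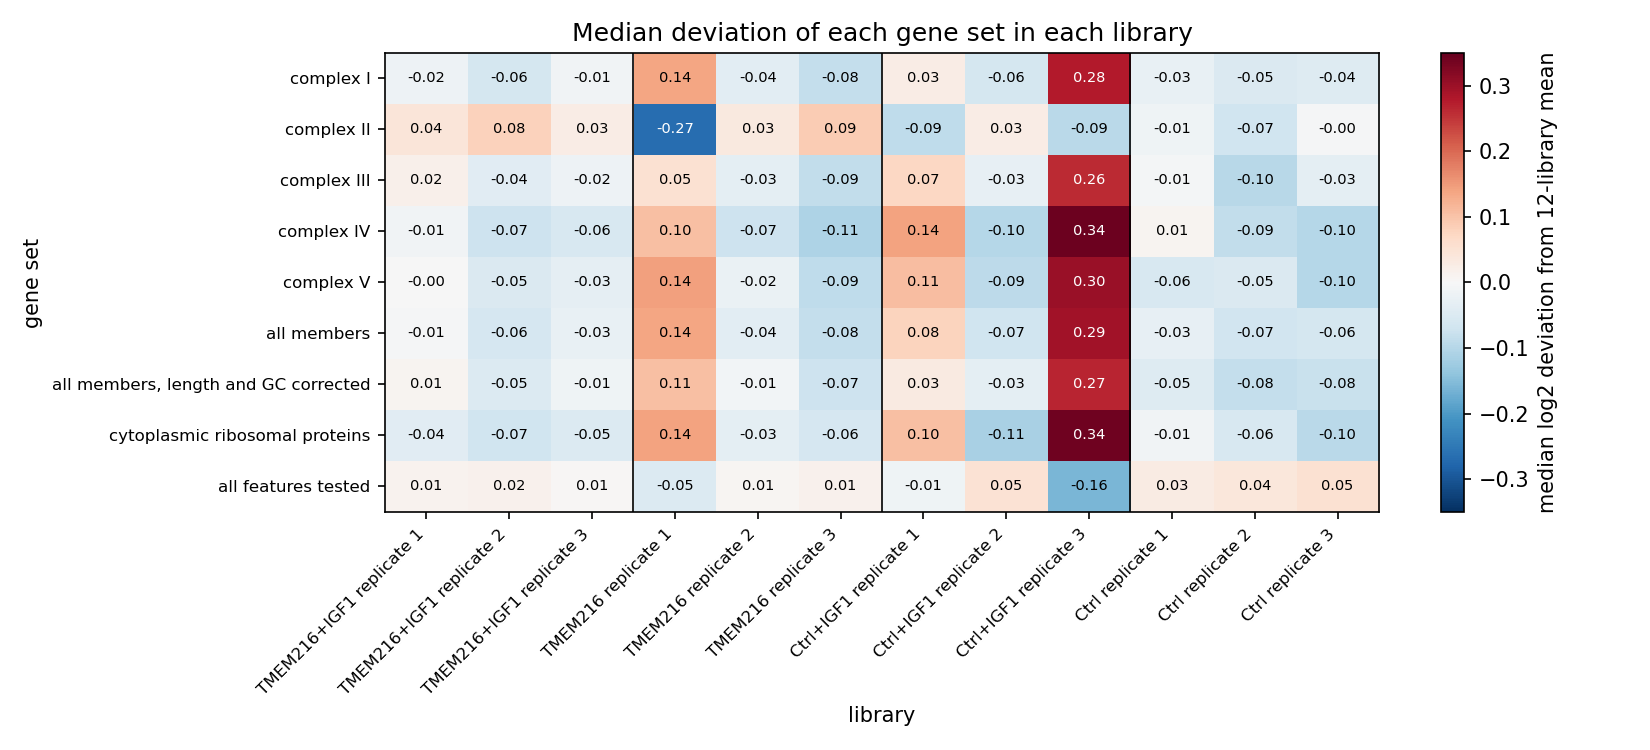
Median log2 deviation from the 12-library mean of log2(TPM + 1), for the members of each complex, all members before and after correction for length and GC content, 78 cytoplasmic ribosomal protein genes and all tested features, in each library. Ctrl+IGF1 replicate 3 reaches 0.34 in complex IV, and complex II is at -0.27 in TMEM216 replicate 1.

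Transcript length ran along with these deviations. In Ctrl+IGF1 replicate 3 the median deviation was 0.36 over the 24 members under 1000 bases, 0.33 over the 25 members of 1000 to 2000 bases and 0.12 over the 29 longer members. All 24 of the shortest members lay above their own mean there, against 16 of the 29 longest. Over all features in the same library the median was 0.27 below 1000 bases and -0.35 at 8000 bases or more. These lengths are of the longest annotated transcript, which can exceed the longest coding one. NDUFS8, for example, has 3072 and 791 bases, and ATP5PD 2191 and 603. Which transcript these cells use was not tested. The correlation of deviation with log2 length over the 78 members was -0.59 in Ctrl+IGF1 replicate 3, -0.45 in TMEM216 replicate 1 and 0.39 in Ctrl+IGF1 replicate 2, each across genes of a single library, which are not independent replicates.

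The members at the ends of this range differed in size. The highest deviations in Ctrl+IGF1 replicate 3 were 0.65 for ATP5ME, with a longest transcript of 496 bases, and 0.60 for ATP5MK, with 882 bases, both small membrane subunits of complex V. The lowest was -0.62 for NDUFS1, the largest core subunit of complex I, with 11819 bases. NDUFS1 had 31.7, 40.2 and 34.5 TPM in TMEM216+IGF1 cells, 24.9, 36.8 and 47.6 TPM in TMEM216 cells, 26.7, 38.0 and 21.9 TPM in Ctrl+IGF1 cells, and 37.3, 37.7 and 41.9 TPM in Ctrl cells. Its lowest libraries were Ctrl+IGF1 replicate 3 and TMEM216 replicate 1, the libraries in which the shortest members were highest.

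Before any correction the median deviation in Ctrl+IGF1 replicate 3 was 0.29 for the members and -0.16 for all features, and in TMEM216 replicate 1 it was 0.14 and -0.049. After a correction for length and GC content, fitted in each library over all features, it was 0.27 for the members and -0.011 for all features in Ctrl+IGF1 replicate 3, and 0.11 and 0.002 in TMEM216 replicate 1. The members' distance from all features was thus smaller after the correction in both libraries. In Ctrl+IGF1 replicate 3, complex I had 0.28 before the correction and 0.19 after it, and complex III 0.26 and 0.22. Complex IV had 0.34 before it and 0.29 after it, and complex V 0.302 and 0.306. After it complex II still had -0.093 in Ctrl+IGF1 replicate 3 and -0.16 in TMEM216 replicate 1. Cytoplasmic ribosomal proteins are another family of short and abundant transcripts. Without the correction, they had a median deviation of 0.34 in Ctrl+IGF1 replicate 3 and 0.14 in TMEM216 replicate 1. They made up 15.6% of all TPM in Ctrl+IGF1 replicate 3 and 11.6 to 13.7% in the other libraries. The part of library quality in these deviations was not tested.

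**Figure D3:**
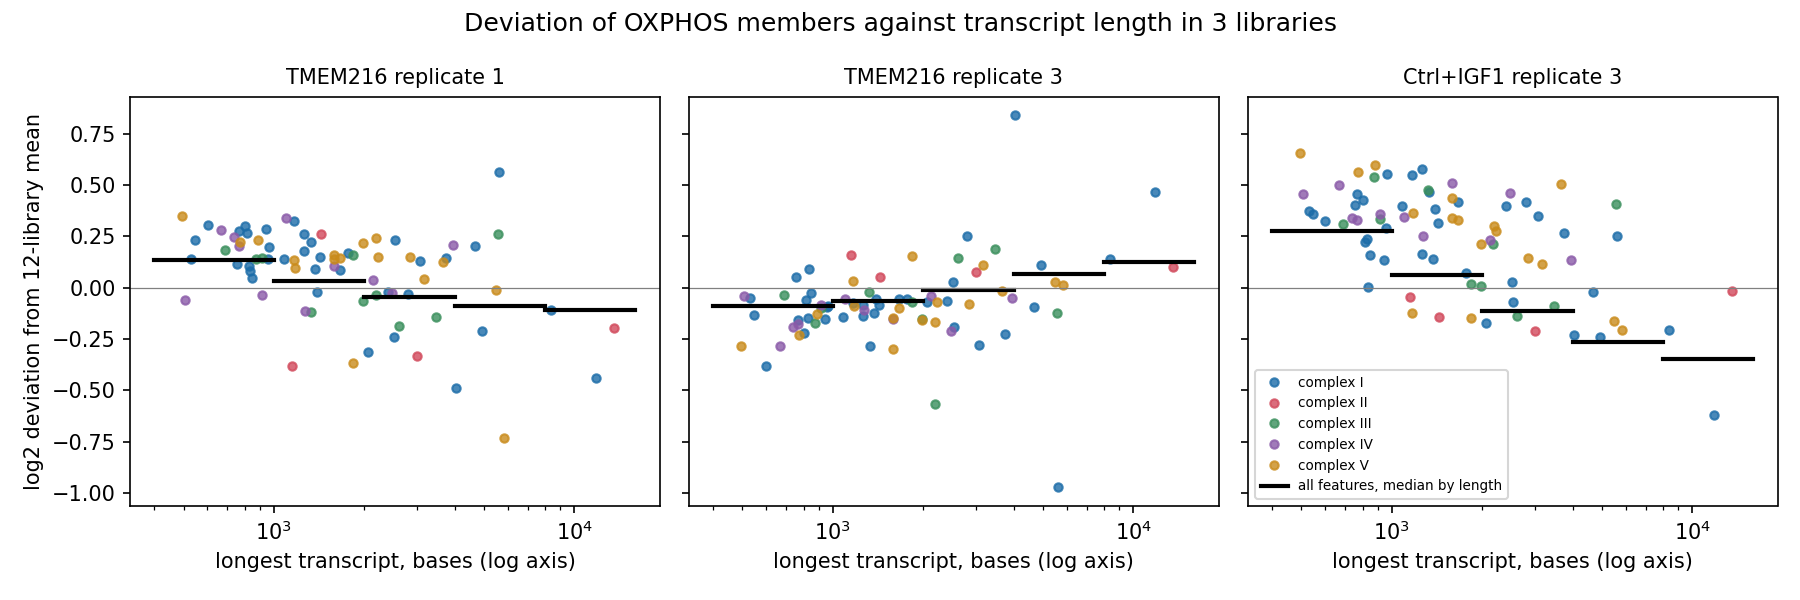
Log2 deviation of each tested member from its 12-library mean against the length of its longest transcript (log axis) in TMEM216 replicate 1, TMEM216 replicate 3 and Ctrl+IGF1 replicate 3. Points are members by complex and black lines the median of all features in each length range, which runs from 0.27 to -0.35 in Ctrl+IGF1 replicate 3.

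The TMEM216-labelled cells were compared with the Ctrl-labelled cells, first averaged over IGF1. Of the 78 members, SDHD rose and COX5A fell, by about the same small amount, and no other member passed the test. SDHD averaged 256 ± 21.3 TPM in TMEM216-labelled libraries and 225 ± 5.45 TPM in Ctrl-labelled libraries, and COX5A, a nuclear subunit of complex IV, averaged 219 ± 3.82 TPM in TMEM216-labelled libraries and 250 ± 19.2 TPM in Ctrl-labelled libraries (SD, n = 6 each). These are 2 of 78 members, or 2.56%, whereas 5.22% of all features were called, 2.0% higher and 3.21% lower. The median log2 fold change was -0.040 over the members, with 29 of 78 above 0, and -0.001 over all features. Without Ctrl+IGF1 replicate 3 the members' median turned to 0.011, with 44 above 0, and all features had -0.027. After the length and GC correction it was -0.005, and that of all features 0.008.

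SDHD had 239, 240 and 243 TPM in TMEM216+IGF1 cells, 287, 278 and 248 TPM in TMEM216 cells, 225, 231 and 217 TPM in Ctrl+IGF1 cells, and 226, 220 and 229 TPM in Ctrl cells. All 6 TMEM216-labelled libraries lay above all 6 Ctrl-labelled libraries, as was so for 1.97% of all features. Its log2 fold change was 0.183 (SE 0.047, limma adjusted p = 0.0422). By condition it was 0.267 without IGF1 and 0.1 with it. TIMM8B, which overlaps SDHD on the opposite strand, had 84.2 to 101 TPM in TMEM216-labelled libraries and 70.1 to 112 TPM in Ctrl-labelled libraries (log2 fold change 0.13, adjusted p = 0.404).

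COX5A had 225, 217 and 217 TPM in TMEM216+IGF1 cells, 216, 222 and 216 TPM in TMEM216 cells, 262, 246 and 278 TPM in Ctrl+IGF1 cells, and 252, 231 and 227 TPM in Ctrl cells. All 6 TMEM216-labelled libraries lay below all 6 Ctrl-labelled libraries, as was so for 2.42% of all features. Its log2 fold change was -0.185 (SE 0.046, limma adjusted p = 0.040). By condition it was -0.117 without IGF1 and -0.252 with it. COX5B, another nuclear subunit of complex IV, averaged 153 ± 16.8 TPM in TMEM216-labelled libraries and 159 ± 22.2 TPM in Ctrl-labelled libraries, with overlap.

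**Figure D4:**
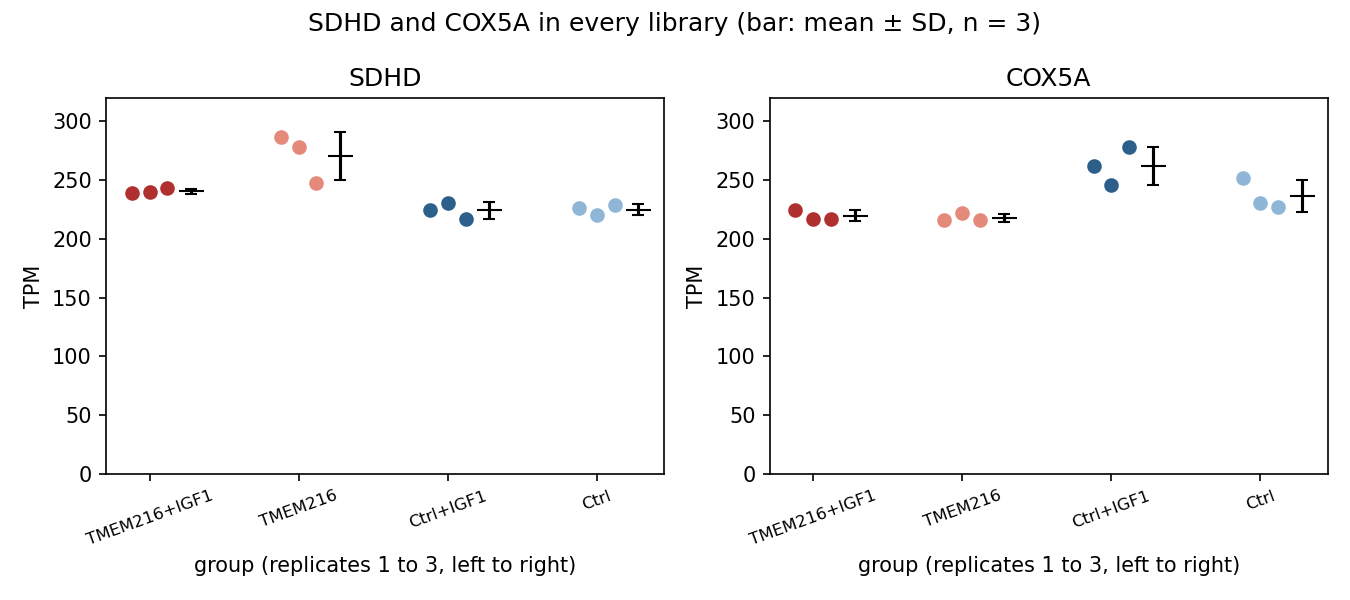
TPM of SDHD and COX5A in every library of the 4 groups (points), with the mean and SD of 3 libraries beside them (bars). SDHD lies at 239 to 287 TPM in TMEM216-labelled libraries and at 217 to 231 TPM in Ctrl-labelled ones, and COX5A at 216 to 225 TPM in TMEM216-labelled libraries and at 227 to 278 TPM in Ctrl-labelled ones.

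The other subunits of complex II did not pass this test: the log2 fold change was 0.063 for SDHA, 0.044 for SDHB and -0.024 for SDHC. SDHA averaged 165 ± 23.5 TPM in TMEM216-labelled libraries and 157 ± 16.3 TPM in Ctrl-labelled libraries, and SDHB averaged 163 ± 21.5 TPM in TMEM216-labelled libraries and 157 ± 8.37 TPM in Ctrl-labelled libraries (SD, n = 6 each). Among the members with the next smallest p, ATP5F1C, the gamma subunit of complex V, had 448 to 498 TPM in TMEM216-labelled libraries and 416 to 464 TPM in Ctrl-labelled libraries (log2 fold change 0.13, adjusted p = 0.112). COX7A2 of complex IV had 459 to 476 TPM in TMEM216-labelled libraries and 471 to 625 TPM in Ctrl-labelled libraries (log2 fold change -0.15, adjusted p = 0.150).

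Both calls were lost in most alternatives. Without any 1 of the 10 libraries other than Ctrl+IGF1 replicates 2 and 3, the adjusted p of COX5A was 0.0535 to 0.115, and without any 1 of the 10 libraries other than Ctrl+IGF1 replicate 2 and TMEM216 replicate 3, that of SDHD was 0.0508 to 0.115. Of 4 markers of other cell types, PECAM1, a gene of endothelial cells, moved with the label, with 1.08 to 2.15 TPM in TMEM216-labelled libraries and 0.646 to 1.07 TPM in Ctrl-labelled libraries (log2 fold change 0.38, adjusted p = 0.044), while PTPRC, ALB and SFTPC had at most 0.35 TPM. The 4 markers summed to 1.23 to 2.26 TPM in TMEM216-labelled libraries and 0.848 to 1.21 TPM in Ctrl-labelled libraries, and their part in the result was not tested.

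The sequences upstream of SDHD and COX5A, the members that passed the test, are shown with those of SDHB and COX5B, subunits of the same complexes that did not, so that the known promoter motifs of this gene family can be compared between them. Each holds the 250 bases before the annotated start of transcription in RefSeq (GRCh38.p14), read on the gene's strand, and capitals mark matches to the NRF1 motif (its palindromic consensus with flanking bases), the ETS motif (CCGGAAG) or the YY1 motif (AANATGGC) on either strand.
SDHD, chr11:112086623-112086872, plus strand: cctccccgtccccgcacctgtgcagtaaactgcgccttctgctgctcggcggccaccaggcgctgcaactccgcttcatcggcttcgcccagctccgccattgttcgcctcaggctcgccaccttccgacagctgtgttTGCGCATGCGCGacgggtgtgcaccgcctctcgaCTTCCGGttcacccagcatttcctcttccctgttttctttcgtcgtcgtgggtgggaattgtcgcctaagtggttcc
SDHB, chr1:17054033-17054282, minus strand: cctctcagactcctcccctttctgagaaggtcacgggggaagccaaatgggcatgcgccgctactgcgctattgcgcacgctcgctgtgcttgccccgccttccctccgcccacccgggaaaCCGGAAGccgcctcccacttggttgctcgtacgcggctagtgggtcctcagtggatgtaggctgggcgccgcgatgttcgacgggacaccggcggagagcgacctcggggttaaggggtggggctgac
COX5A, chr15:74938074-74938323, minus strand: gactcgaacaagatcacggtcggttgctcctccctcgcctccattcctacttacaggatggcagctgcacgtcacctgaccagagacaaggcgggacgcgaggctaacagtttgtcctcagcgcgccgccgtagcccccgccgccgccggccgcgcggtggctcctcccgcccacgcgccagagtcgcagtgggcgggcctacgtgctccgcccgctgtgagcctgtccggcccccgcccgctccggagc
COX5B, chr2:97645812-97646061, plus strand: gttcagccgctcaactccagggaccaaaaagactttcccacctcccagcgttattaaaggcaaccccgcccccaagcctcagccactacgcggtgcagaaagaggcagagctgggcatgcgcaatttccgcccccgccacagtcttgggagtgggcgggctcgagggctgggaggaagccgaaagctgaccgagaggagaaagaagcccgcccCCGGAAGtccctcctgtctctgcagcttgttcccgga
SDHD held 1 match to the NRF1 motif and 1 to the ETS motif in these bases. SDHB and COX5B held 1 match to the ETS motif each. COX5A held no match to these letters.

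NRF1, the ETS factor GABP and YY1 are known activators of nuclear genes of respiration. Of the 78 tested members, 63 matched a promoter of 250 bases before to 50 bases after a start, and a gene with several starts counted once if any of them held a motif. Among these 63, 65.1% held at least 1 of the 3 motifs, against 34.5% of 10109 tested genes. The YY1 motif was in 39.7% of member promoters and 12.6% of tested genes, the NRF1 motif in 9.52% and 3.4%, and the ETS motif in 33.3% and 22.8%. Over all 27305 genes with a promoter of this length the shares were 7.97% for YY1, 1.79% for NRF1 and 12.2% for ETS. By complex, the YY1 motif was in 13 members of complex I, 1 of II, 3 of III, 4 of IV and 4 of V. The NRF1 motif was in 4 of complex I, 1 of II, 1 of III, 0 of IV and 0 of V. Complex I is also the largest, with 36 tested members, so these counts are not shares. The CCAAT box, searched as CCAAT, was in 33.3% of member promoters and 43.8% of tested genes, and the GC box, searched as GGGCGG, in 65.1% and 77.3%. A GC box can overlap the other motifs, and a match is a description of the sequence, not of binding.

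Without IGF1, TMEM216 cells had no member past the threshold by limma against Ctrl cells, whereas 1.09% of all features were called. The smallest p belonged to SDHD, which averaged 271 ± 20.7 TPM in TMEM216 cells and 225 ± 4.57 TPM in Ctrl cells (SD, n = 3 each; log2 fold change 0.27, SE 0.066, adjusted p = 0.0821). At an unadjusted p under 0.05, 3 members were higher in TMEM216 cells, SDHD, ATP5F1C and ATP5MG, and 0 were lower, against 3.17% and 10.0% of all features. ATP5MG, a membrane subunit of complex V, had 392, 523 and 320 TPM in TMEM216 cells, against 299, 315 and 312 TPM in Ctrl cells. A single TMEM216 library, replicate 2, was far above the rest, though the groups did not overlap.

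The libraries of the groups did not overlap for 7 members that were higher in TMEM216 cells, or 8.97%, against 6.3% of all features. They were SDHD, ATP5F1C, ATP5MC1, ATP5MC3, ATP5MG, NDUFB3 and UQCRH. They did not overlap for 2 members that were lower, COX5A and UQCRC1, against 15.5% of all features. NDUFB3, an accessory subunit of complex I, had 137, 135 and 131 TPM in TMEM216 cells and 117, 122 and 115 TPM in Ctrl cells. UQCRH of complex III had 517, 472 and 444 TPM in TMEM216 cells and 413, 424 and 429 TPM in Ctrl cells, and neither gene passed the test.

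By complex, the median log2 fold change without IGF1 was 0.051 for complex I, -0.043 for II, 0.060 for III, 0.046 for IV and 0.072 for V. Over all 78 members it was 0.053, and over all features -0.048. With median-of-ratios scaling, which puts the median of all features at 0.0, the members' median was 0.104, with 64 of 78 above 0. Without TMEM216 replicate 1 the members' median was -0.005, with 37 of 78 members above 0, against 52 with it, and the median of complex II was 0.073. All features then had -0.025. The members' 95% interval had a median half-width of 0.25. This interval is not adjusted for the 13071 features, so a typical member could differ by more than that and still not be called.

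**Figure D5:**
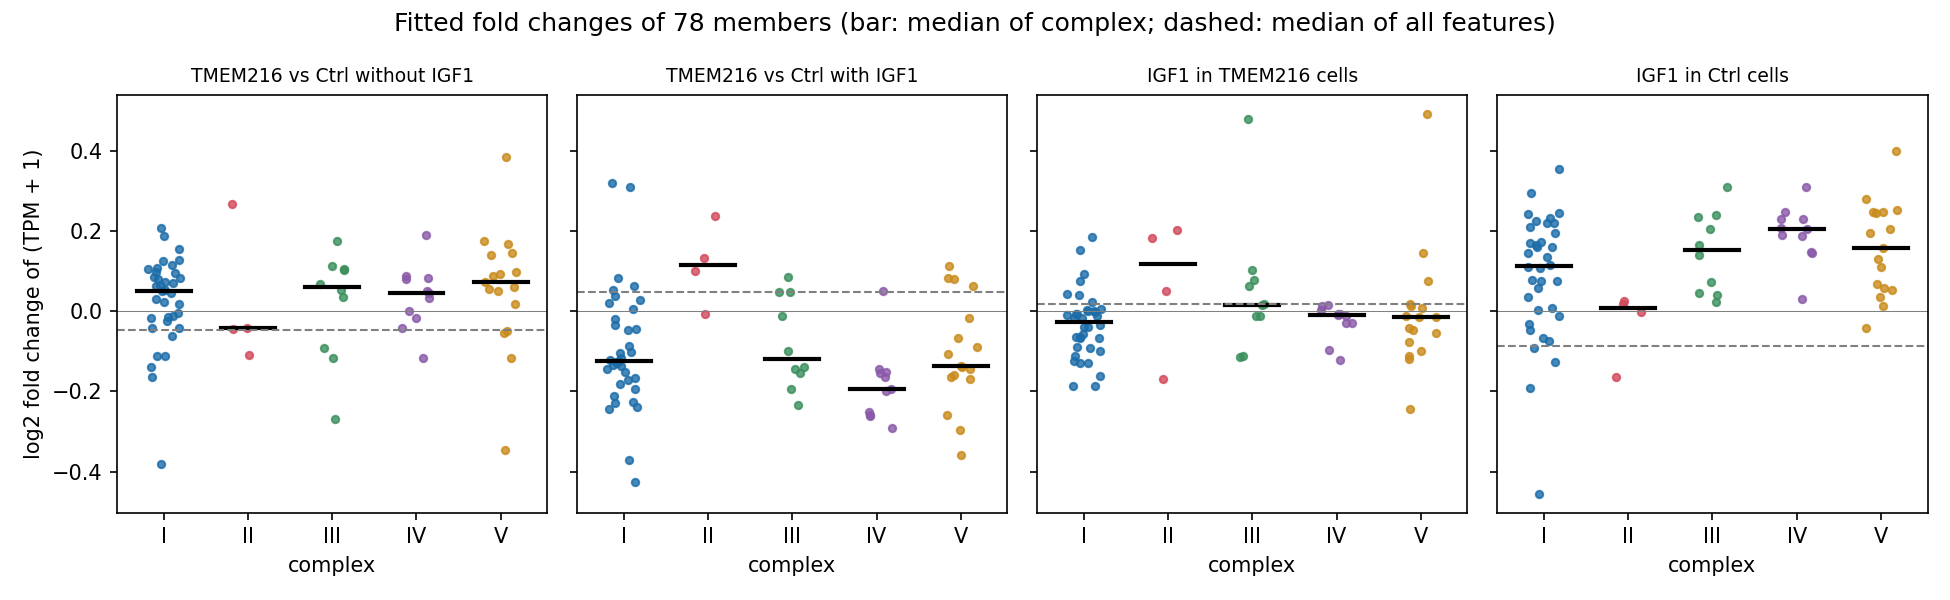
Log2 fold change of TPM + 1 for each of the 78 tested members (points) by complex, in TMEM216 against Ctrl cells without and with IGF1, and with against without IGF1 in TMEM216 and in Ctrl cells. Black bars are the median of each complex and the dashed line is the median of all features, which lies at -0.088 for IGF1 in Ctrl cells where complex IV lies at 0.205.

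With IGF1, TMEM216+IGF1 cells had no member past the threshold by limma against Ctrl+IGF1 cells, whereas 1.61% of all features were called. At an unadjusted p under 0.05, 0 members were higher and 7 were lower in TMEM216+IGF1 cells, against 9.98% and 5.85% of all features. COX5A had the smallest p, with 220 ± 4.67 TPM in TMEM216+IGF1 cells and 262 ± 16.1 TPM in Ctrl+IGF1 cells (SD, n = 3 each; log2 fold change -0.25, SE 0.066, adjusted p = 0.0878). NDUFA3, a small accessory subunit of complex I, had 64.9, 68.1 and 76.1 TPM in TMEM216+IGF1 cells and 89.8, 79.5 and 116 TPM in Ctrl+IGF1 cells. ATP5MF, a membrane subunit of complex V, had 368, 361 and 339 TPM in TMEM216+IGF1 cells and 470, 358 and 565 TPM in Ctrl+IGF1 cells. For both genes Ctrl+IGF1 replicate 3 was the highest library, and for ATP5MF the groups overlapped.

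The libraries of TMEM216+IGF1 and Ctrl+IGF1 cells did not overlap for 6 members that were lower in TMEM216+IGF1 cells, COX5A, COX7A2, NDUFA11, NDUFA3, NDUFB8 and NDUFV3. Their share of 7.69% was the same as that of all features, 7.69%. SDHD was the 1 member that was higher without overlap, against 12.0% of all features. The median log2 fold change was -0.12 for complex I, 0.12 for II, -0.12 for III, -0.19 for IV and -0.14 for V, -0.13 over all members and 0.048 over all features. Without Ctrl+IGF1 replicate 3 the members' median was -0.025, against -0.006 over all features, and complex IV had -0.047. Without Ctrl+IGF1 replicate 2, in which the members were low, 8 of 78 members were called lower, among them COX5A, COX7A2, NDUFA3 and ATP5MF, and 3.53% of all features were called, 308 higher and 154 lower.

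In TMEM216 cells, IGF1 changed no member by limma, and 0.0153% of all features were called. At an unadjusted p under 0.05, 1 member was higher and 1 lower, against 3.08% and 1.7% of all features. UQCRHL had 11.3, 7.99 and 9.21 TPM in TMEM216+IGF1 cells and 8.18, 6.16 and 5.34 TPM in TMEM216 cells (log2 fold change 0.48, SE 0.17, adjusted p = 0.906), and the groups overlapped. SDHD averaged 241 ± 2.14 TPM in TMEM216+IGF1 cells and 271 ± 20.7 TPM in TMEM216 cells (SD, n = 3 each; log2 fold change -0.17, SE 0.066, adjusted p = 0.938), with no overlap. SDHD and NDUFB3 were the 2 members lower without overlap, against 3.69% of all features, and 0 members were higher without overlap, against 6.56%. The median log2 fold change was -0.012 over the members and 0.018 over all features. Without TMEM216 replicate 1 the members' median was 0.023, and with median-of-ratios scaling -0.034. All features then had -0.003 and -0.001.

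In Ctrl cells, IGF1 changed no member by limma, and 0.0306% of all features were called. The log2 fold change was above 0 for 66 of 78 members, among them all 10 of complex III and all 11 of complex IV, and for 3555 of 13071 features. Their median was 0.14, against -0.088 over all features, with 0.11 for complex I, 0.007 for II, 0.15 for III, 0.205 for IV and 0.16 for V. At an unadjusted p under 0.05, 10 members were higher, or 12.8%, and 0 were lower, against 1.22% and 5.67% of all features. The groups did not overlap for 10 members that were higher in Ctrl+IGF1 cells, or 12.8%, against 2.72% of all features. For 0 members were they lower without overlap, against 11.8% of all features.

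NDUFA4, the complex IV subunit with the smallest p here, had 107, 97.1 and 113 TPM in Ctrl+IGF1 cells and 92.7, 91.3 and 89.6 TPM in Ctrl cells (log2 fold change 0.21, SE 0.073, adjusted p = 0.673). ATP5MF had 470, 358 and 565 TPM in Ctrl+IGF1 cells and 348, 352 and 337 TPM in Ctrl cells (log2 fold change 0.40, SE 0.14, adjusted p = 0.673), and without Ctrl+IGF1 replicate 3 its log2 fold change was 0.246. The groups did not overlap for either gene, and in both Ctrl+IGF1 replicate 3 was highest and replicate 2 lowest of the treated libraries. The other members without overlap were ATP5MG, COX7B, CYC1, NDUFA11, NDUFA6, NDUFB8, UQCRB and UQCRHL. SDHA of complex II had 136, 171 and 138 TPM in Ctrl+IGF1 cells and 173, 165 and 159 TPM in Ctrl cells (log2 fold change -0.16). For SDHA it was -0.106 without Ctrl+IGF1 replicate 1, -0.271 without replicate 2, -0.075 with median-of-ratios scaling and -0.082 after a correction for length and GC content.

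Much of this pattern lay in a single library. Without Ctrl+IGF1 replicate 3, the members' median was 0.047, with 56 of 78 members above 0, and the medians of complexes I, III, IV and V were 0.019, 0.070, 0.087 and 0.074. All features then had -0.024. Without Ctrl+IGF1 replicate 2 the members' median was 0.25, against -0.136 over all features. Median-of-ratios scaling put it at 0.233, with 73 of 78 members above 0 and all features at -0.006. Cytoplasmic ribosomal proteins had a median of 0.17 in this comparison, with 0 of 78 called. The Ctrl+IGF1 and Ctrl libraries also enter the comparisons with TMEM216-labelled cells above, so those values are not independent.

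The difference between the responses to IGF1 in the cell populations, tested as an interaction, was past the threshold for 0 members by limma and for 0.0153% of all features. At an unadjusted p under 0.05, 0 members were higher and 6 lower, against 4.47% and 0.91% of all features. NDUFA3 had the smallest p (log2 difference -0.54, SE 0.19, adjusted p = 0.754). The members' median was -0.16, against 0.11 over all features. Without both Ctrl+IGF1 replicate 3 and TMEM216 replicate 1 it was -0.015, against 0.021 over all features. Averaged over both populations, IGF1 changed 0 members by limma, against 0.0536% of all features. In that comparison 1 member, UQCRHL, was higher at an unadjusted p under 0.05 and 0 were lower, against 1.68% and 4.19% of all features. There, 0 members were higher or lower without overlap, against 0.0383% and 0.168% of all features.

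Genes that serve these complexes were described in the same fit, for TMEM216-labelled against Ctrl-labelled cells averaged over IGF1, where 5.22% of all features were called and 1.97% were higher and 2.42% lower without overlap. Of 51 assembly factors, which build the complexes, 0 passed the test, and the median log2 fold change was 0.027. COX20, which assists the assembly of complex IV, had the smallest p (log2 fold change 0.49, SE 0.13, adjusted p = 0.055). Of 4 tested partners outside the symbol series, such as cytochrome c (CYCS) and NDUFAB1, and of 7 carriers of ATP, phosphate and other metabolites, 0 passed. Of 14 genes of the tricarboxylic acid cycle, SUCLA2, a subunit of succinate-CoA ligase, rose, and 0 fell. SUCLA2 averaged 48.0 ± 1.15 TPM in TMEM216-labelled libraries and 39.8 ± 2.28 TPM in Ctrl-labelled libraries, without overlap (SD, n = 6 each; log2 fold change 0.26, SE 0.052, adjusted p = 0.012), and it passed in all 21 alternatives run for it.

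Of 12 regulators of mitochondrial biogenesis, 1 rose and 1 fell, against 2.0% and 3.21% of all features. GABPB1, the beta subunit of GABP, averaged 44.8 ± 2.57 TPM in TMEM216-labelled libraries and 37.1 ± 2.19 TPM in Ctrl-labelled libraries (SD, n = 6 each; log2 fold change 0.265, SE 0.059, adjusted p = 0.0229). POLRMT, the RNA polymerase of mitochondria, averaged 43.5 ± 1.27 TPM in TMEM216-labelled libraries and 49.5 ± 1.55 TPM in Ctrl-labelled libraries (log2 fold change -0.18, SE 0.046, adjusted p = 0.0397). The groups did not overlap for either gene. Of 78 mitochondrial ribosomal proteins, MRPL2 fell (log2 fold change -0.225, SE 0.058, adjusted p = 0.0432), and of 78 cytoplasmic ribosomal proteins 0 passed. GABPB1 passed in 15 of 21 alternatives, POLRMT in 9 and MRPL2 in 5. In the 4 single comparisons, in the interaction and for IGF1 averaged over the populations, 0 genes of these lists passed.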

How the data were processed

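RNA from 12 libraries of MDA-231-LM2 cells was measured by RNA-seq. The authors deposited TPM per gene. HISAT2, StringTie and RSEM are named in the submitters' processing notes, without versions. Genome build, annotation and strandedness are not stated. TPM holds no read counts, so depth is unknown, no counting interval is given, and a value of 0 is described only as listed at 0. TPM is relative within a library, so a high share of some genes lowers all others.

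log2(TPM + 1) was fitted for features with at least 1 TPM in 3 or more libraries, in all 4 groups together, with limma 3.58.1 in R 4.3.3 (package data.table, version 1.17.8), moderated variances and a mean-variance trend. Fold changes on this scale understate changes of low genes. Tests were two-sided, and adjusted p is Benjamini-Hochberg over 13071 features, with a threshold of 0.05. SE is limma's. The fit was tested on simulated data with independent features and added changes larger than those of SDHD and COX5A. Tables and figures were made with Python 3.11.15, pandas 2.3.3, numpy 2.4.6 and matplotlib 3.10.9.

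Transcript length and GC content came from the longest transcript of each gene in GENCODE v29, found for 12482 tested features (95.5%). The transcripts in use can be shorter, and the length and GC correction rests on the same lengths. Of the tested members, 31 overlap another tested gene, 24 of them on the opposite strand, and 45 have named pseudogenes, of which the table lists 0, so reads shared with such copies could shift single genes.

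Members and gene lists were chosen with earlier results of these data known. The genes named were those past the threshold, the smallest p per complex and comparison, the highest and lowest level per complex, the complex II genes and the isoform pairs. Values of every library are given for those the results turn on and ranges or means for the rest. NDUFA5, NDUFS1, ATP5F1A, NDUFB5, NDUFS4, ATP5ME, ATP5MK, COX5B, the other members named as not overlapping, and the split of subunits by role were chosen after their values were seen. Alternatives were other scalings, filters, pseudocounts, a length and GC correction, a replicate block and leaving out libraries. Whether replicate numbers pair the libraries is not stated, and the closing section gives how far they correlated.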

Additional observations from a re-analysis of the deposited data

How the results depend on the processing

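The count of members called in TMEM216-labelled against Ctrl-labelled cells averaged over IGF1, 2 as reported, was 0 with median-of-ratios scaling, 0 without the mean-variance trend, 4 of 78 after the length and GC correction (COX7A2, CYC1, SDHD and COX5A, where 9.8% of all features were called), 0 to 4 when 1 library was left out (4 without Ctrl+IGF1 replicate 2, where 6.93% of all features were called), and 1 (COX5A) without both Ctrl+IGF1 replicate 3 and TMEM216 replicate 1. With IGF1 it was 2 after the length and GC correction (COX7A2 and COX5A, where 3.52% of all features were called), against 0 as reported, and 0 to 8 when 1 library was left out (8 without Ctrl+IGF1 replicate 2, where 3.53% of all features were called). Without IGF1 it was 0 to 1, the 1 being SDHD without TMEM216 replicate 3. Over 21 alternatives COX5A was called in 8 and SDHD in 7, with log2 fold changes of -0.207 to -0.151 and 0.15 to 0.215. The median over members in the interaction, -0.16 as reported, was -0.015 without both libraries, and the log2 fold change of COX6C with IGF1 in TMEM216 cells ran from -0.197 to 0.013 when 1 library was left out, turning positive (0.013) without TMEM216 replicate 1 and also without both libraries. Median-of-ratios scaling put the median of all features in the interaction at 0.005, against 0.107 unscaled, and that of the members at -0.27. Of all values recomputed, 281 counts and medians and 448 single-gene values kept their direction and side of the threshold or moved by less than the spread between replicates. That spread was 0.111 for the members' median. A small median could thus change sign and count as kept, as did that without IGF1, 0.053, at -0.005 without TMEM216 replicate 1. Outside those kept, 21 counts and medians moved and 2 single-gene values reversed direction. The threshold was lost by 27 single-gene values, the losses of COX5A in 13 alternatives and SDHD in 14 among them, and gained by 5. The cause of these shifts was not tested, and depth is unknown.

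With the replicate number as a block, 0 members were called averaged over IGF1 (COX5A adjusted p = 0.0738, SDHD 0.0753), and no other count of members called changed. Whether the numbers pair the libraries is not stated. Over 18 pairs with the same number in different groups, the correlation of deviations from the group means was -0.286 to 0.165. It was over 0.1 in 4, and 4 of 12 libraries correlated best with their own number. With 3 libraries per group, such a check cannot exclude a small shared effect.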
